A study of Mus musculus with 12 samples.

Results

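The cytosolic ribosomal protein genes were described in RNA from mouse hearts that carried an expanded GGC repeat of NOTCH2NLC. Members were taken by gene symbol, as every gene named Rpl or Rps followed by a number (with an optional a, l, x or y and a further digit), together with Rplp0, Rplp1, Rplp2 and Rpsa. This gave 83 of the 25171 loci in the count table, of which 32 encode proteins of the small subunit and 51 of the large subunit. Rps4l, a paralogue of Rps4x, had no row among them. The genes Fau, Rpl36al and Rack1, whose products are also ribosomal but whose names the rule does not take, were followed separately.

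All 12 mice carried NOTCH2NLC with 98 GGC repeats behind a loxP-flanked stop at the Rosa26 site. The 3 E2a-tg mice also had E2a-Cre, which acts in all tissues, and the 3 E2a-ctl mice were littermates without that Cre, all taken at postnatal day 30. The Myh6-tg and Myh6-ctl mice, 3 each, came from crosses with Myh6-creERT2, a Cre driven by the cardiomyocyte promoter of Myh6 and activated by tamoxifen, and were taken at day 90. The Myh6-tg mice received 3 injections of tamoxifen at 75 mg/kg from day 60, and the Myh6-ctl mice were littermates given the corn oil alone. In this model, tamoxifen and expression of the repeat therefore cannot be told apart. The labels describe every sample as a separate biological replicate of heart.

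Some libraries went against their labels. Esr1 encodes an estrogen receptor, and a tamoxifen-responsive piece of it is fused to Cre in the inducible allele. It was at 2330, 1383 and 1030 CPM in the hearts labelled Myh6-ctl. The same row was between 1.00 and 2.52 CPM in the libraries labelled Myh6-tg and between 0.408 and 1.23 CPM in all E2a hearts, although the same Cre allele is described for both Myh6 groups. Myh6-tg and Myh6-ctl below therefore mean the libraries with those labels, and every direction between them rests on the labels. Other measures also separated these libraries: the mitochondrial share of counts was 15.5 to 18.6% in those labelled Myh6-tg and 31.8 to 38.3% in Myh6-ctl, and 4 activated fibroblast markers summed to 1209 to 2709 and 69.9 to 145 CPM. CPM here and throughout means counts scaled to the total of a heart as counts per 1e6, and then with TMM factors, a correction that sets the bulk of genes at one level in all hearts. The genotype labels of E2a-tg replicates 2 and 3 name other transgenic lines than that of replicate 1, and the groups were taken from the titles. Tissue labels give heart, whereas the extraction text speaks of brain. The 8 cardiomyocyte markers summed to between 9574 and 47024 CPM per heart, and the 6 neural markers to between 2.28 and 7.91 CPM.

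The ribosome reads messenger RNA and joins amino acids into protein. Its small subunit holds the message and checks the match of codon and tRNA, and its large subunit forms the peptide bond. Each ribosomal protein is present once per ribosome, apart from the acidic stalk proteins, and most members are expressed in every cell and regulated together. A few have a close paralogue with a restricted pattern. The best known in muscle is Rpl3l, a form of Rpl3 that is found in heart and skeletal muscle and that takes the place of Rpl3 in part of the ribosomes of the cardiomyocyte.

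The start of the coding sequence is shown for the 2 paralogue pairs that hold Rpl3l and Rps27l, the members with the lowest log2 fold change in both models and the largest rise in E2a-tg hearts. Capitals mark bases at which the 2 members of a pair differ, from the start codon onwards and without gaps, as read from GENCODE M21 transcripts of GRCm38.
Rpl3: atgtcTcacAggaaAttctcAgcTccCAgg
Rpl3l: atgtcCcacCggaaGttctcTgcCccTCgg
Rps27: atgccTctCgcAaAGgatctCCtTcaTccC
Rps27l: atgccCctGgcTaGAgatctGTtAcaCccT
The first pair differed at 7 and the second at 10 of these 30 bases. Over the whole coding sequence, Rpl3 and Rpl3l shared 74.4% of aligned bases with a longest identical run of 22 bases, and Rps27 and Rps27l shared 76.1% with a longest run of 11. Rpl22 and Rpl22l1 (70.2%), Rpl7 and Rpl7l1 (62.6%), Rpl39 and Rpl39l (85.3%) and Rpl10 and Rpl10l (84.8%) were likewise far enough apart for most reads to be told from one another. Rpl3 (403 codons) lies on chromosome 15 from 80077791 to 80091868 on the reverse strand, and Rpl3l (407 codons) on chromosome 17 from 24727820 to 24736143 on the forward strand, both with 10 exons. Rps2, a small-subunit gene, ends 5890 bases before Rpl3l on the same strand.

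Promoters were read for the 63 members that the RefSeq table of GRCm38.p6 holds, from 250 bases before to 50 bases after the annotated start. The hexamer CGGAAG, the core bound by ETS factors, was present on either strand in 42 of the 63 (66.7%), and in 22.2% of all 16517 promoters of the same length. TATAAA was present in 9.52% of the members' promoters against 12.9% of all, and CACGTG, an E-box, in 7.94% against 8.12%. Windows of 30 bases are shown for members that rose in E2a-tg hearts or that carry the hexamer in a well-studied gene (Rps6), with CGGAAG or its reverse complement in capitals, and for Rpl3l around its annotated start. None of the 3 motifs was found in the 300 bases of Rpl3l.
Rps27l (chr9:66946084-66946113, forward): ccgcctctatccCGGAAGttgctgaggggc
Rpl41 (chr10:128549152-128549181, reverse): cacgggccggctCGGAAGtgacgacaccga
Rpl19 (chr11:98026659-98026688, forward): gacttagcgtgaCTTCCGgctacccagagg
Rps6 (chr4:86857362-86857391, reverse): ccctgggttaagCGGAAGtcgggcctcttt
Rpl3l (chr17:24727811-24727840, forward): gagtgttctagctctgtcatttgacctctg

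The members were spread over 19 chromosomes, with 14 on chromosome 7 and 4 on the X. They are short genes, with a median coding length of 459 bases (78 in Rpl41, the shortest, to 1260) in a median of 5 exons. Small nucleolar RNAs, which guide modification of ribosomal RNA, lay inside 30 of the 83 members (36.1%) and inside 1.26% of all coding genes of the table. Rpl13a held 4 of these 58 small nucleolar RNAs and Rpl3 held 2.

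Between 38343106 and 50969834 reads per heart were counted on genes, so that 3 counts correspond to between 0.0568 and 0.0815 CPM, a floor that covers counting error only. Transcripts of the mitochondrial genome took 28.5 to 38.3% of the counts in the other groups and 15.5 to 18.6% in Myh6-tg hearts. Counts on Y-linked genes were present only in replicate 1 of each group (4224 to 7307 counts, against 0 to 2 in the others), so every group held the same mix of sexes. Fibroblast markers, 7 genes, summed to 1425.5 to 2065 CPM in E2a-ctl, 2624 to 3797 in E2a-tg, 1911 to 2404 in Myh6-ctl and 2567 to 6097 in Myh6-tg hearts. Of the 83 members, Rpl10l was at 0 counts in all 12 hearts and Rpl39l was at or below 0.466 CPM. Neither passed the filter on low counts in the 2 transgenic comparisons, which leaves 81 members tested there, and Rpl39l passed it only between the control groups, where 82 were tested.

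The members together took 1.76, 2.18 and 2.00% of the counts on nuclear genes in E2a-ctl hearts and 2.92, 2.28 and 2.77% in E2a-tg hearts. The lowest E2a-tg heart was above the highest E2a-ctl heart. In Myh6-ctl hearts they took 1.77, 2.68 and 2.88%, and in Myh6-tg hearts 2.06, 3.01 and 2.83%, so these groups overlapped. Within the members the small subunit took 43.4 to 45.4% of the counts in E2a-ctl, E2a-tg and Myh6-ctl hearts, and 41.6 to 42.5% in the Myh6-tg hearts.

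**Figure D1:**
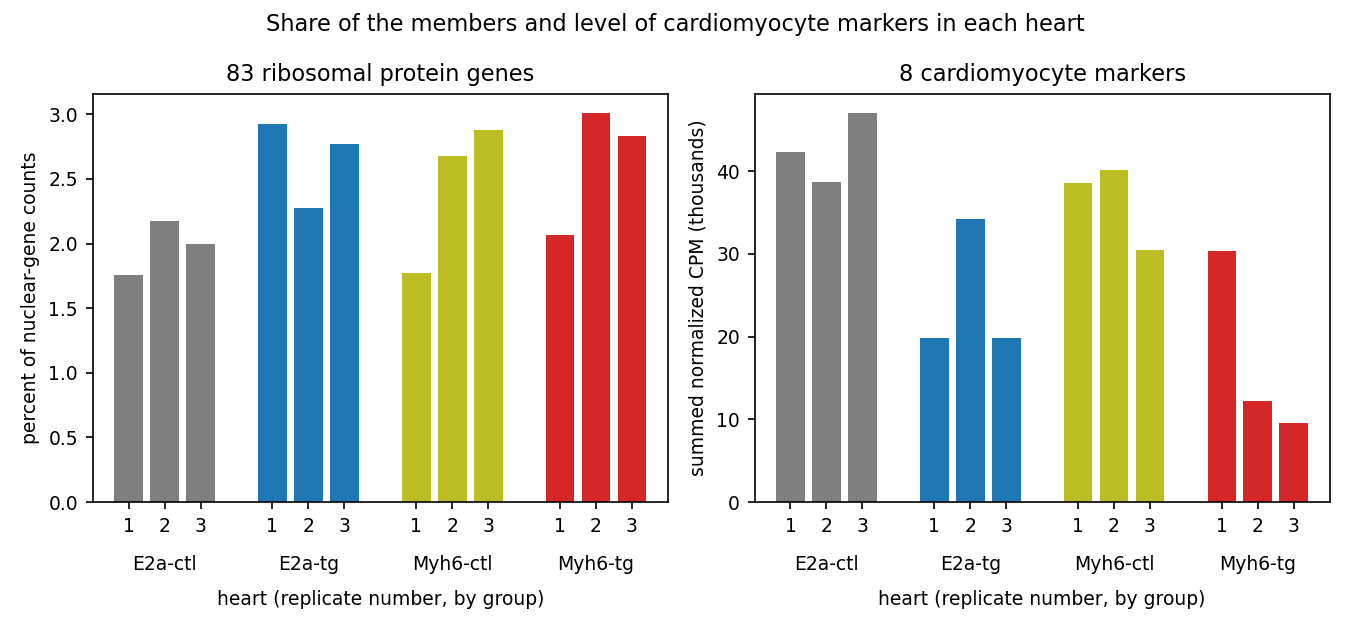
Left, percent of nuclear-gene counts (mitochondrial transcripts left out) that fell on the 83 members in each of the 12 hearts; right, summed normalized CPM of 8 cardiomyocyte markers divided by 1000; each bar is 1 heart. The E2a-tg hearts lie between 2.28 and 2.92%, all above the E2a-ctl hearts, and in both transgenic groups the heart with the lowest share has the highest marker sum (E2a-tg replicate 2 and Myh6-tg replicate 1).

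The members moved together from heart to heart within a group. In E2a-ctl replicate 1 only 2 of 81 members were above the mean of their group, against 75 and 69 in replicates 2 and 3. E2a-tg hearts had 79, 3 and 49 members above the group mean, Myh6-ctl hearts 2, 78 and 66, and Myh6-tg hearts 4, 77 and 49. One heart in each group was thus low for nearly all members. In all 4 groups that heart was also the one with the most counts: 50707729 in E2a-ctl replicate 1, 50969834 in E2a-tg replicate 2, 50940490 in Myh6-ctl replicate 1 and 43058194 in Myh6-tg replicate 1. In Myh6-ctl the margin was small, as replicate 3, with 66 members above the group mean, had 50907555 counts. The 8 cardiomyocyte markers summed to 34208 CPM in E2a-tg replicate 2 against 19866 and 19849.5 CPM in the other hearts of that group. They summed to 30342.5 CPM in Myh6-tg replicate 1 against 12259 and 9574 CPM. No such gap was seen in the low control hearts, where the sums were 42307 against 38710 and 47024 CPM in E2a-ctl and 38587 against 40103 and 30479 CPM in Myh6-ctl. The part of depth or of cell makeup in the members' values was not tested.

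Levels between genes were compared on FPKM, the authors' values scaled to transcript length. In E2a-ctl hearts the highest means were those of Rps2, a small-subunit protein near the mRNA entry channel (657 ± 54.4 FPKM, SD, n = 3), Rplp0, the base of the stalk (553 ± 47.7), and Rps24 (406 ± 59.7). The ranges of Rps2 (597 to 703) and Rplp0 (507 to 602) touched. The median over the 81 members other than Rpl10l and Rpl39l was 129.7 FPKM, and the highest mean was 39.5 times the lowest, that of Rpl7l1 (16.6 ± 0.67). GENCODE M21 names 300 pseudogenes of ribosomal proteins, of which the count table has rows for 7 by symbol. The effect of reads shared with such copies on these levels was not tested. Rplp0 led in E2a-tg (850 ± 114 against 805 ± 60.04 for Rps2) and in Myh6-tg hearts (966 ± 122), where Rpl10 followed (795 ± 169). The order of the members hardly differed between groups. Spearman's rho across the 81 genes, which share libraries and lengths, was 0.990 between the control groups, 0.980 between E2a-ctl and E2a-tg and 0.982 between Myh6-ctl and Myh6-tg. For Rps15a the units disagreed. Its E2a-tg hearts were at 149, 103 and 117 CPM against 91.9, 107 and 101 CPM in E2a-ctl, but at 44.8, 72.5 and 37.99 FPKM against 15.1, 19.0 and 17.1.

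Rpl3l was the member whose level changed most. It was measured at 242, 167 and 203 CPM in E2a-ctl hearts and at 85.3, 143 and 43.7 CPM in E2a-tg hearts. It was at 186, 129 and 119 CPM in Myh6-ctl hearts and at 6.96, 10.3 and 4.50 CPM in the hearts labelled Myh6-tg. Neither transgenic group overlapped its control group, and every Myh6-tg heart lay below all hearts of the other groups. Of all genes, 20.8% lay below the controls without overlap in E2a-tg hearts and 19.6% in Myh6-tg hearts. On FPKM, Rpl3l stood at place 40 of the members in E2a-ctl, next to Rpl3 at 39 (131 ± 19.2 and 131 ± 21.4 FPKM). In Myh6-tg it was at place 81 with 6.23 ± 2.33 FPKM, and only Rpl39l and Rpl10l were lower. Its counts went from 1.10 to 1.89% of all members' counts in E2a-ctl to 0.0245 to 0.0504% in Myh6-tg hearts.

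In Myh6-tg against Myh6-ctl hearts Rpl3l fell by 4.32 on the log2 scale (SE 0.36), a level 20.0-fold lower, with an adjusted p of 0.00136 (edgeR's quasi-likelihood test, Benjamini-Hochberg over all genes tested). It was called lower under each of 13 other settings and with each of the 6 hearts left out. In E2a-tg against E2a-ctl hearts its log2 fold change was -1.17 (SE 0.37, adjusted p = 0.0614), which did not pass the threshold of 0.05. It passed without the filter on low counts (adjusted p = 0.0437), on FPKM with limma (0.0479 and 0.0497 with the 2 pseudocounts) and without E2a-tg replicate 2 (log2 fold change -1.67, adjusted p = 0.00491). The difference between the 2 fold changes was itself past it (log2 difference -3.15, SE 0.55, adjusted p = 0.0112, edgeR over all 12 hearts), but not when the replicate 1 hearts were left out of every group. Between the control groups it was -0.49 (SE 0.21, adjusted p = 0.422).

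Cardiomyocyte markers, taken as a sum, had a lower mean in both transgenic groups, as Rpl3l had. Their sum was 38710 to 47024 CPM in E2a-ctl, 19849.5 to 34208 in E2a-tg, 30479 to 40103 in Myh6-ctl and 9574 to 30342.5 in Myh6-tg hearts, with none of the 8 at 0 in any group. Of the 8, 7 had a log2 fold change below 0 in E2a-tg and 6 in Myh6-tg hearts. In the first 1 was called lower (12.5%, against 8.3% of all genes) and in the second 4 (50%, against 9.38%). Within Myh6-tg hearts the order differed, as replicate 1 had the highest sum and replicate 2 the highest Rpl3l. In bulk RNA, fewer cells of a type and less RNA of a gene per cell cannot be told apart. Myh6-tg replicate 1 had a marker sum of 30342.5 CPM, beside 30479 CPM in Myh6-ctl replicate 3, and its Rpl3l was at 6.96 CPM beside 119 CPM. Myh6, the cardiac myosin heavy chain whose promoter drives the Cre, was at 2903 CPM in that heart and at 9579 CPM in Myh6-ctl replicate 3. This is 1 pair picked for its close sums, and the other Myh6-tg hearts summed to 12259 and 9574 CPM. The part of cell makeup in the Rpl3l values was not tested.

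Rpl3, the widely expressed paralogue that sits close to the site of peptide bond formation, was at 170.4, 219.5 and 205 CPM in E2a-ctl and at 309, 237 and 306 CPM in E2a-tg hearts. The groups did not overlap, and Rpl3 rose 1.43-fold (log2 fold change 0.51, SE 0.14, adjusted p = 0.0414). In Myh6-ctl hearts it was at 163, 268 and 380.3 CPM and in Myh6-tg hearts at 386, 362 and 339.6 CPM. The wide spread of the controls gave a log2 fold change of 0.42 (SE 0.30, adjusted p = 0.370).

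The ratio of the 2 paralogues within a heart does not depend on scaling between hearts. E2a-ctl hearts had 1.42, 0.761 and 0.989 reads of Rpl3l for each read of Rpl3, and E2a-tg hearts had 0.276, 0.605 and 0.142. Myh6-ctl hearts had 1.14, 0.482 and 0.313, and Myh6-tg hearts had 1 read of Rpl3l for 55.5, 35.2 and 75.4 reads of Rpl3. As a log2 ratio this was 0.03 ± 0.45 (SD, n = 3) in E2a-ctl hearts against -1.80 ± 1.04 in E2a-tg hearts, and -0.85 ± 0.95 against -5.72 ± 0.55 in the Myh6 model. Each transgenic group lay wholly below its controls, with an exact two-sided permutation p of 0.1 in both models, the smallest that 3 against 3 hearts allow. The controls of the 2 models overlapped (difference -0.88, exact permutation p = 0.3).

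**Figure D2:**
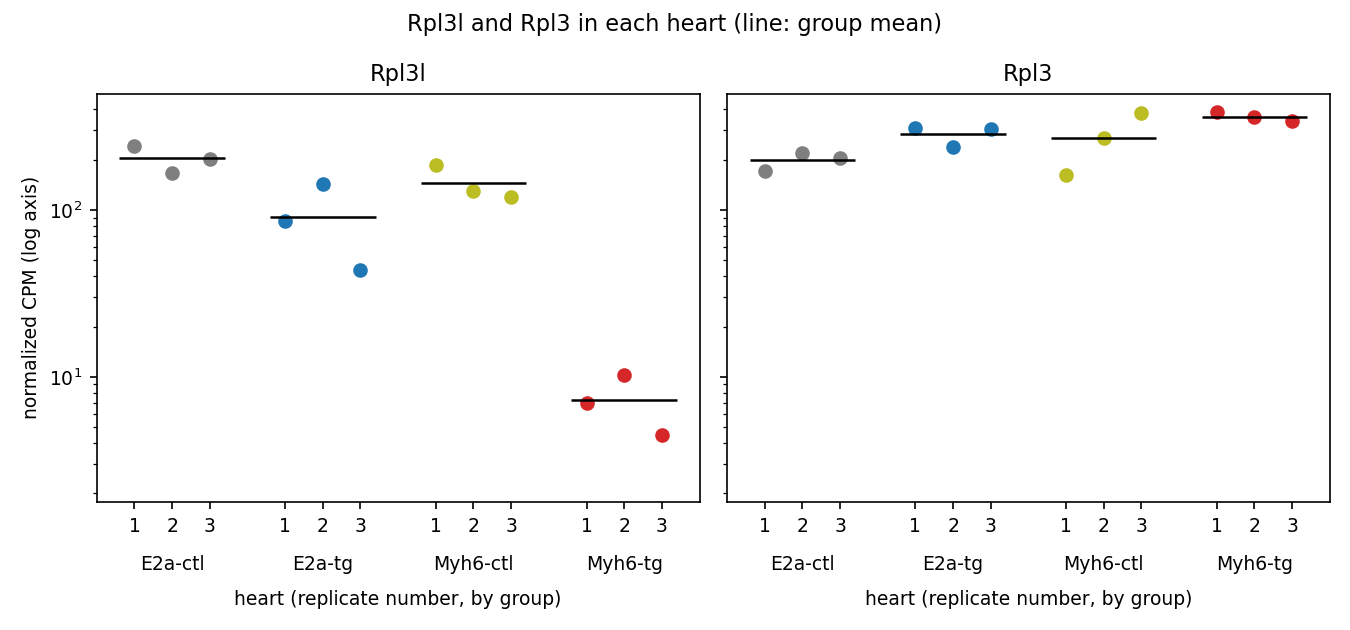
Normalized CPM of Rpl3l (left) and Rpl3 (right) on a log axis; each point is 1 heart and each line a group mean. Rpl3l lies at 4.50 to 10.3 CPM in Myh6-tg hearts and at 43.7 CPM or more in all others, and Rpl3 between 163 and 386 CPM in all 12 hearts.

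Between E2a-tg and E2a-ctl hearts, most log2 fold changes of the members were small and above 0. They were above 0 for 80 of 81 members (98.8%), where 51.4% of all 14908 genes tested were above 0, and their median was 0.32 (quartiles 0.27 and 0.42) against 0.02 over all genes. Myh6-ctl against E2a-ctl hearts, a comparison of controls, gave a similar shift, with 77 of 82 members above 0 and a median of 0.29. At an adjusted p under 0.05, 10 members were called higher in E2a-tg hearts (12.3%) and 0 lower. Over all genes 8.65% were called higher and 8.3% lower. Without adjustment 42 members had a p under 0.05. The share of all genes at that cut-off was not counted, and 17% of all genes passed it after adjustment. Normalized levels did not overlap, with the E2a-tg hearts above, for 31 members (38.3%) and for 20.3% of all genes. At the thresholds that the study applied, an adjusted p under 0.01 with a 2-fold change, edgeR called 0 members and 0% of all genes. The study itself used DESeq2 and reported differentially expressed genes in these hearts at those thresholds, so the 0 is that of edgeR. DESeq2 calls at those thresholds were not counted here. With DESeq2 at the same threshold of 0.05, 29 of 82 members were called higher (35.4%) and 0 lower, where 9.12% of all genes were called higher and 8.8% lower. Macrophage markers, 7 genes, summed to 441 to 682 CPM in E2a-ctl and 948 to 1238 CPM in E2a-tg hearts, with none at 0, and erythroid markers, 5 genes, to 1542 to 2607 and 198 to 1270 CPM. Their part in the members' values was not tested.

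The count of 10 rested on few hearts. It was 0 when E2a-ctl replicate 1, E2a-ctl replicate 3, E2a-tg replicate 1 or E2a-tg replicate 3 was left out, fits in which 0, 1, 0 and 104 of all genes were called higher. It was 5 (6.17%) without E2a-ctl replicate 2, where 6.57% of all genes were called higher. It was 45 (55.6%, against 12.9% of all genes) without E2a-tg replicate 2, the heart with low members and high cardiomyocyte markers. In one fit to all 12 hearts, which also changed the filter and the scaling, it was 0, where 1.1% of all genes were called higher. The median was between 0.22 and 0.42 with 1 heart left out, and 0.13 with 69 members above 0 in the 4 female hearts alone, a fit chosen after seeing the data.

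The largest rise was that of Rps27l, the paralogue of the small-subunit protein Rps27 and a target of p53. It was at 23.6, 27.9 and 22.7 CPM in E2a-ctl and at 49.0, 36.9 and 50.7 CPM in E2a-tg hearts, with no overlap, a 1.83-fold rise (log2 fold change 0.88, SE 0.14, adjusted p = 0.0166). In the Myh6 model it was at 19.9, 49.0 and 35.5 CPM in controls and 14.7, 39.2 and 33.9 CPM in transgenic hearts, which overlapped (log2 fold change -0.25, SE 0.42, adjusted p = 0.724; the sign turned with total counts as the scale, which put all genes 0.43 higher). Taken as pairs by replicate number, a pairing that no label gives, it was lower in 3 of 3 pairs. The fit with the replicate block gave -0.27 (SE 0.17, adjusted p = 0.294). The difference between models was -1.13 (SE 0.49, adjusted p = 0.233).

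Rpl41, the shortest member with 25 codons, was at 63.0, 66.5 and 84.8 CPM in E2a-ctl and at 131, 90.2 and 112 CPM in E2a-tg hearts. Its 1.55-fold rise (log2 fold change 0.63, SE 0.16, adjusted p = 0.0345) was the second largest. Rpl13a, a large-subunit protein that can also leave the ribosome to silence inflammatory messages, was at 248, 309.5 and 291 CPM and at 479, 352 and 459 CPM, a 1.51-fold rise (log2 fold change 0.60, SE 0.14, adjusted p = 0.0310). Both genes had their lowest E2a-tg value in replicate 2, above every control. Rpl19, which reaches from the large to the small subunit, was at 190.3, 243 and 219 CPM and at 338, 265 and 351 CPM (log2 fold change 0.54, SE 0.14, adjusted p = 0.0354).

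Rps14, Rplp0, Rpl7 and Rps3 were also called higher, as was Rpl3. Rps14, whose loss from one chromosome underlies an anaemia in people, was at 238 ± 36.9 CPM in controls and rose to 348 ± 51.6 CPM, a log2 fold change of 0.54 (adjusted p = 0.0444). Rpl7, a large-subunit protein, rose from 357 ± 31.4 to 483 ± 55.2 CPM (0.43, adjusted p = 0.0470). Rps3, which lines the entry of the mRNA channel, rose from 328 ± 26.3 to 434 ± 43.8 CPM (0.40) with an adjusted p of 0.0499, and that call was lost, among other settings, when mitochondrial transcripts, loci without a gene name or the filter on low counts were left out. None of these groups overlapped between E2a-ctl and E2a-tg.

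**Figure D3:**
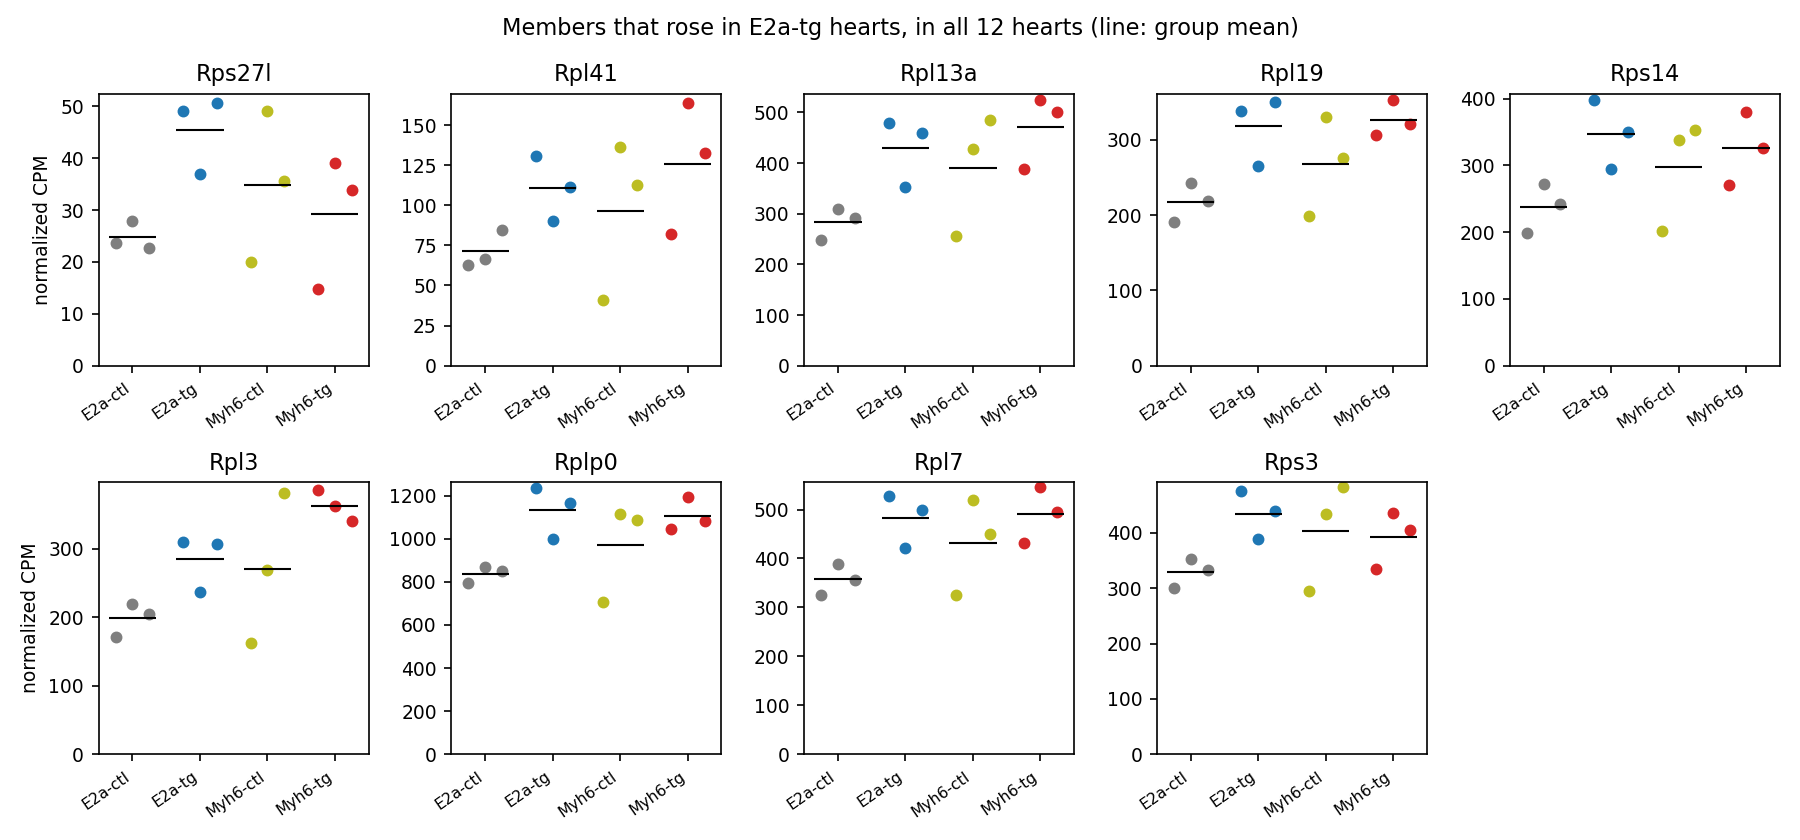
Normalized CPM of 9 members that rose in E2a-tg hearts, shown in all 4 groups, with an axis from 0 in each panel; points are hearts and lines group means. Every E2a-tg point lies above every E2a-ctl point, and the Myh6 groups overlap in all 9 panels.

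By subunit, 4 of 32 small-subunit members and 6 of 49 large-subunit members were called higher (12.5 and 12.2%, against 8.65% of all genes), with medians of 0.32 and 0.33. The smallest log2 fold changes above 0 were those of Rpl7l1 (0.01, SE 0.08), Rps21 (0.02) and Rps2 (0.05, SE 0.11). Rpl7l1, a paralogue of Rpl7 that works in assembly of the large subunit, was nearly level at 48.8, 48.8 and 49.6 CPM in E2a-ctl and 48.1, 49.0 and 51.2 CPM in E2a-tg hearts.

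The stalk recruits elongation factors to the ribosome. Its base Rplp0 was at 796, 870.1 and 851 CPM in E2a-ctl and at 1238, 999.7 and 1168 CPM in E2a-tg hearts and rose 1.35-fold (log2 fold change 0.43, SE 0.12, adjusted p = 0.0482). Its acidic partners Rplp1 (0.36, SE 0.16, adjusted p = 0.141) and Rplp2 (0.25, SE 0.18, adjusted p = 0.345) did not pass the threshold, and for both E2a-tg replicate 2 lay within the range of the controls.

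Rpl5 and Rpl11 carry the 5S RNA into the large subunit and, when free, bind Mdm2, the ligase that degrades p53. Their log2 fold changes were 0.40 (SE 0.12, adjusted p = 0.0574) and 0.27 (SE 0.12, adjusted p = 0.159). Mdm2 itself rose from 54.2, 54.2 and 55.0 CPM to 90.2, 75.1 and 106.6 CPM (log2 fold change 0.73, SE 0.12, adjusted p = 0.0166). Rpl23 and Rpl26, which also bind Mdm2 or the p53 message, were at 0.32 (adjusted p = 0.214) and 0.30 (adjusted p = 0.114).

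Further members with a known role gave values of the same size. Rps6, the substrate of S6 kinase, was at 303, 356 and 342 CPM in E2a-ctl and 450.5, 369 and 426 CPM in E2a-tg hearts, which did not overlap (log2 fold change 0.31, SE 0.12, adjusted p = 0.0983). Rps19, often mutated in Diamond-Blackfan anaemia, had 0.55 (SE 0.21, adjusted p = 0.104), with E2a-tg replicate 2 inside the control range. Rpl10, added late in assembly of the large subunit, had 0.39 (SE 0.13, adjusted p = 0.0712), and Rps27a, made as a fusion with ubiquitin, had 0.48 (SE 0.16, adjusted p = 0.0779). Rpl10a had 0.34 (SE 0.10, adjusted p = 0.0511), Rps25, needed by some viral messages, 0.39 (adjusted p = 0.121), Rpl32 0.31 (adjusted p = 0.122) and Rpsa, also known as the laminin receptor, 0.31 (adjusted p = 0.1002). Rpl38, which helps translate Hox messages in the embryo, was low and variable, at 3.98, 8.96 and 8.89 CPM against 12.3, 7.29 and 11.1 CPM (0.49, SE 0.32, adjusted p = 0.313). Of these 15 members with a known role, which include Rpl13a and Rps3, 2 were called higher (13.3%, against 12.3% of all members and 8.65% of all genes). All 15 were above 0, as were 80 of the 81 members.

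Among the other paralogues, Rpl39 was at 13.1, 16.9 and 15.8 CPM in E2a-ctl and 29.2, 17.0 and 24.3 CPM in E2a-tg hearts, which just failed to overlap (log2 fold change 0.62, SE 0.19, adjusted p = 0.0610). Rpl39l, known from the testis, was at or below 0.313 CPM in these hearts. Rpl22 is known to repress its paralogue Rpl22l1. Rpl22 had 0.33 (SE 0.14, adjusted p = 0.126), and Rpl22l1, at 9.40 to 16.3 CPM, had 0.17 (SE 0.23, adjusted p = 0.646). Rps4x had 0.21 (SE 0.12, adjusted p = 0.245).

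Rps27 had to be read together with Rps27rt, an intronless gene on chromosome 9 whose coding sequence of 255 bases is identical to it (100% of bases). The share of their summed counts given to Rps27 went from 16.3 to 87.1% between hearts. In Myh6-tg hearts it was 16.3, 87.1 and 75.7%, and in E2a-tg hearts 84.7, 46.0 and 63.8%. Reads of the shared sequence cannot be assigned to either gene, so neither row is a measure of Rps27 alone. Rps27 by itself had a log2 fold change of 0.34 (SE 0.44, adjusted p = 0.621) in E2a-tg hearts, and the sum of both had 0.41 (SE 0.19, adjusted p = 0.160). In Myh6-tg hearts the values were 0.19 (SE 0.82, adjusted p = 0.902) and -0.03 (SE 0.28, adjusted p = 0.956).

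**Figure D4:**
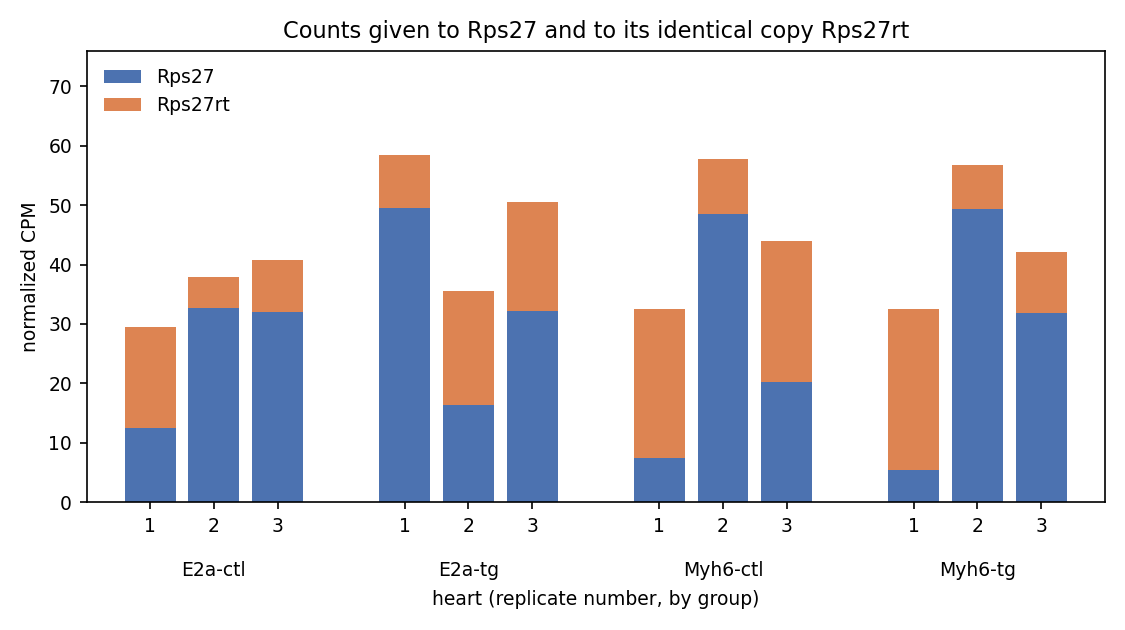
Normalized CPM counted on Rps27 (lower part) and on its identical copy Rps27rt (upper part) in each of the 12 hearts; each stacked bar is 1 heart. The part given to Rps27 runs from 16.3% in Myh6-tg replicate 1 to 87.1% in Myh6-tg replicate 2.

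In Myh6-tg against Myh6-ctl hearts, Rpl3l was the single member called. Of 81 members, 0 were called higher, where 8.96% of all 15298 genes were, and 1 lower, where 9.38% were. With edgeR that member also passed the study's thresholds, as did 3.97% of all genes. No other member had an unadjusted p under 0.05 in this unblocked fit. DESeq2 called 0 members higher and 1 lower, and 9.07% of all genes higher and 10.2% lower. The log2 fold change was above 0 for 52 members (64.2%) against 52.1% of all genes, with a median of 0.05 against 0.03, and levels overlapped between the groups for all 80 other members. Rpl3l was the one member below its controls without overlap, as were 19.6% of all genes, and 0 members were above, where 20.6% were. Without Rpl3l the values lay between -0.55 and 0.62. With total counts as the scale, the median of all genes moved to 0.43 and that of the members to 0.45, and in the E2a comparison to 0.21 and 0.52.

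The members that rose in E2a-tg hearts did not pass the threshold here. Rpl41 was at 40.7, 137 and 113 CPM in Myh6-ctl and 81.9, 164 and 133 CPM in Myh6-tg hearts (log2 fold change 0.38, SE 0.44, adjusted p = 0.586). By replicate number, a pairing that no label gives, it was higher in 3 of 3 pairs, and the replicate block gave 0.50 (SE 0.21, adjusted p = 0.142). Rpl13a had 0.27 (SE 0.28, adjusted p = 0.537), Rpl19 0.28 (SE 0.23, adjusted p = 0.427) and Rplp0 0.19 (SE 0.25, adjusted p = 0.640). Rpl7, Rps14 and Rps3 had 0.19, 0.13 and -0.04, the last with a sign that turned under total counts. The part of the activated fibroblast markers given above in these values was not tested. Standard errors of these 7 genes were larger than in the E2a model, and Myh6-ctl replicate 1 was the lowest control heart for each of these genes.

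The largest value above 0 was that of Rpl30, at 24.8, 46.5 and 35.6 CPM in Myh6-ctl and 34.3, 60.3 and 69.9 CPM in Myh6-tg hearts (0.62, SE 0.32, adjusted p = 0.213). It was higher in 3 of 3 of these unlabelled pairs by replicate number, with 0.61 (SE 0.19, adjusted p = 0.0629) under the replicate block. Rpl10 followed with 0.48 (SE 0.28, adjusted p = 0.267) and Rpl17 with 0.45 (SE 0.45, adjusted p = 0.527). Rpl17 rested on Myh6-tg replicate 3, at 153 CPM against 40.9 and 61.1 CPM in the other transgenic hearts, and turned to -0.29 without it. The lowest after Rpl3l was Rps29 (-0.55, SE 0.38, adjusted p = 0.346). Rpl5, Rpl11, Rps6, Rps19 and Rpsa had 0.15, 0.21, 0.10, 0.23 and 0.10, and Rpl39 and Rpl22l1 had 0.32 and 0.30, each with an adjusted p above 0.40.

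**Figure D5:**
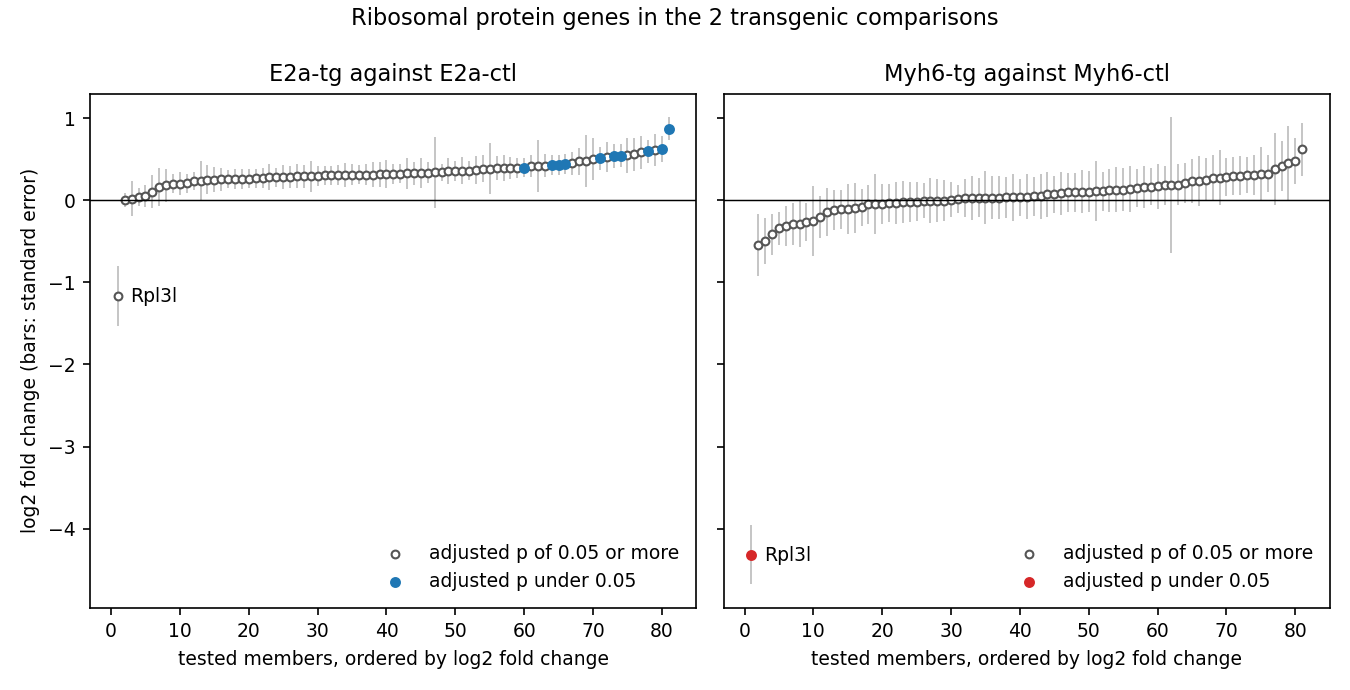
Log2 fold change of the 81 tested members, ordered within each panel, for E2a-tg against E2a-ctl (left) and Myh6-tg against Myh6-ctl (right); bars are standard errors and filled points have an adjusted p under 0.05. On the left 80 members lie above 0 and 10 are filled; on the right 52 lie above 0 and Rpl3l, at -4.32, is the one filled point.

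The 2 models were also compared directly. For the difference between their fold changes, 1 of 81 members was called (Rpl3l, lower in the Myh6 model), where 2.27% of all 15929 genes were called lower, 1.65% higher and 3.92% in either direction. The difference was above 0 for 7 members and for 47.1% of all genes, with a median of -0.29 against -0.04 over all genes. Between the control groups 0 of 82 members were called by edgeR and 0 by DESeq2. There edgeR called 0.02% of all genes higher, 0.0133% lower and 0.0334% in either direction. Without adjustment 4 members had a p under 0.05 (Rpl34, Rpl29, Rpl17 and, lower, Rpl3l), and the share of all genes at that cut-off was not counted. Levels did not overlap for 2 members above, 8.73% over all genes, and for 1 below, 8.71% over all. The median of the members was 0.29 with 77 above 0, where 52% of all genes were, and age, the Cre allele and the oil injection, which differ together between these controls, cannot be told apart. Rplp0, for example, was at 839 ± 38.7 CPM in E2a-ctl and 971 ± 229 CPM in Myh6-ctl hearts, which overlapped (log2 fold change 0.21, SE 0.20, adjusted p = 0.739).

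Genes that make or serve the ribosome were counted from lists, to be read against the shares of all genes called higher and lower (8.65 and 8.3% in E2a-tg, 8.96 and 9.38% in Myh6-tg hearts). Most of the E2a calls named from these lists, like those of the members, were lost in 4 or 5 of the 6 fits with 1 heart left out, and in the Myh6 model so were those of Eef2k, Rrp12, Nop10 and Taf1a. The 3 ribosomal genes outside the symbol rule had 0 calls in both models, with E2a values of 0.46 for Fau (adjusted p = 0.0572), 0.29 for Rack1 and 0.23 for Rpl36al. Of 11 elongation factor genes, 1 was called higher in E2a-tg hearts, Eef1a1, which brings aminoacyl tRNA to the ribosome (0.65, SE 0.17, adjusted p = 0.0355). In Myh6-tg hearts 1 was called higher, Eef2k, the kinase that slows elongation (0.98, SE 0.25, adjusted p = 0.0311).

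Of 42 initiation genes, 5 were called higher and 2 lower in E2a-tg hearts, and 9 higher and 2 lower in Myh6-tg hearts (11.9 and 4.76%, and 21.4 and 4.76%). Eif1a, which helps the small subunit scan for the start codon, had the largest rise in the first (0.67, adjusted p = 0.0307) and Pabpc4, a poly(A) binding protein, the largest fall (-0.69, adjusted p = 0.0353). In the second, Eif2b2 rose most (2.11, SE 0.40, adjusted p = 0.0139), from 20.9, 26.3 and 18.8 CPM to 42.0, 128 and 115 CPM, and Eif4e, the cap binding protein, fell most (-1.24, SE 0.20, adjusted p = 0.00795).

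Of 85 genes of ribosome assembly, 11 were called higher and 1 lower in E2a-tg hearts, and 10 higher and 2 lower in Myh6-tg hearts (12.9 and 1.18%, and 11.8 and 2.35%). Nhp2, a protein of the particles that pseudouridylate ribosomal RNA, rose in E2a-tg hearts (0.79, SE 0.12, adjusted p = 0.0166) and Rrp9 fell (-0.44, adjusted p = 0.0401). Rrp12, which takes part in export of both subunits, rose in Myh6-tg hearts (1.35, SE 0.33, adjusted p = 0.0295), and Nop10 fell (-1.11, adjusted p = 0.0396). The medians of this list were 0.17 and 0.32.

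Of 17 genes for RNA polymerase I and 5S transcription in the table, Ubtf was called higher in E2a-tg hearts (0.50, SE 0.09, adjusted p = 0.0168), and 3 were called higher and 1 lower in Myh6-tg hearts, led by Taf1d (1.19, adjusted p = 0.0157) and Taf1a (-0.80, adjusted p = 0.0358, and 0.0526 with the replicate block). Of 33 genes that govern ribosomal protein expression, among them the mTOR pathway, 2 were called higher and 2 lower in E2a-tg hearts, and 3 higher and 0 lower in Myh6-tg hearts. Myc, a transcription factor of ribosome genes, led the rises in both, from 6.31, 4.06 and 3.45 CPM to 23.4, 10.7 and 18.3 CPM (1.91, SE 0.31, adjusted p = 0.0166) and from 4.86, 10.9 and 10.1 CPM to 28.9, 23.5 and 25.9 CPM (1.60, SE 0.31, adjusted p = 0.0142). Mycn fell in E2a-tg hearts (-1.53, adjusted p = 0.0374). Of 13 genes for p53 signalling and rescue of stalled ribosomes, Mdm2 was called higher and Hbs1l lower (-0.35, adjusted p = 0.0441) in E2a-tg hearts. In Myh6-tg hearts 0 of the 13 were called. There 3 had an unadjusted p under 0.05, and the share of all genes at that cut-off was not counted.

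The ribosome of the mitochondrion is built from other genes, and more of these were called lower than higher. Of 78 mitochondrial ribosomal protein genes, 0 were called higher and 21 lower (26.9%, against 8.3% of all genes) in E2a-tg hearts, with a median of -0.30 and 13 above 0, and 0 higher and 35 lower (44.9%, against 9.38%) in Myh6-tg hearts, with a median of -0.68 and 6 above 0. Mrpl3 had the largest fall in the first (-1.31, SE 0.22, adjusted p = 0.0166), from 104, 85.2 and 99.9 CPM to 34.2, 53.9 and 28.6 CPM. Mrpl42 had it in the second (-1.76, SE 0.22, adjusted p = 0.00411), from 204, 241 and 185 CPM to 72.9, 65.2 and 48.1 CPM. These values are on the TMM scale, as are those of the cytosolic members.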

How the data were processed

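RNA from 12 mouse hearts was sequenced by the authors as 150 bp read pairs (NEBNext Ultra libraries, NovaSeq) and aligned to GRCm38. The submitters' processing notes name HISAT2 2.0.4, StringTie 2.2.1 and DESeq2, and list the builds GRCm39 and mm10. The deposited counts are whole reads per gene, not normalized, and the deposited FPKM values are the authors' own, per transcript length and depth, and were not recomputed from the counts. Groups came from the sample titles, with 3 hearts each. 3135 of the 25171 loci are unnamed (NewGene). Values of some single genes are not reported here. The transgene and sequences of the proteins were not analysed here.

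Each comparison used the 6 hearts of its groups in edgeR 4.0.16 (R 4.3.3): filterByExpr, TMM factors, quasi-likelihood test, Benjamini-Hochberg adjustment over all genes tested, and a threshold of 0.05. The difference between models was fitted over all 12 hearts. Standard errors are the log2 fold change divided by the square root of F. The Rpl3l to Rpl3 ratio used counts plus 1 and exact permutation. Alternatives were DESeq2 1.42.0, limma 3.58.1 on log2 FPKM with pseudocounts of 1 and 0.1 (FPKM filter 0.5), other scalings and filters, a replicate block and each heart left out. Figures used Python 3.11.15 and matplotlib 3.10.9.

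Genes were named by rule: paralogue pairs, stalk proteins, members of known role, the 3 called members of largest rise and of largest fall with at least 5 CPM, the 3 highest and 3 lowest in E2a-ctl FPKM, the 3 unmatched ribosomal genes, and the largest called rise and fall of each other list. Rpl19, Rps14, Rps15a, Rps21, Rps29, Rpl30, Rpl17, Rpl29 and Rpl34, Esr1 and Myh6 were named after their values were seen. The members and lists were chosen with earlier results of these data known.

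Same-numbered hearts of the Myh6 groups deviated together (r = 0.285, 0.184 and 0.173 over 15929 genes), so the replicate numbers were also tried as pairs. No label gives such a pairing, and over the members alone r was 0.464, 0.558 and -0.044. Replicate 1 was the heart with many Y-linked counts in each group, and the part of sex in these values was not tested. Same-numbered hearts of the 2 control groups, which differ in age and cross, had r = 0.124, 0.060 and -0.031. With the replicate block, 1 member was called lower and 0 higher in the Myh6 comparison, as without it.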

Additional observations from a re-analysis of the deposited data

Results flagged for a closer look

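The change of Rpl3l differed between the models. Its log2 fold change in Myh6-tg hearts was 3.15 lower than that in E2a-tg hearts (difference -3.15, SE 0.55, adjusted p = 0.0112, interaction term in edgeR over 12 hearts), and it was lower than the mean of its controls in 3 of 3 hearts of both transgenic groups. The 2 models differ in age, Cre and injections, which cannot be told apart.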

How the results depend on the processing

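In E2a-tg hearts the 10 members called higher became 29 with DESeq2, 41 with total counts as the scale, 36 with limma on FPKM (both pseudocounts), and 0 with all 12 hearts in one fit (other filter and scaling too). The main fit called 8.65% of all genes higher. The share was 9.12% with DESeq2, 17% with total counts, 18.6 and 18.5% on FPKM, and 1.1% over all 12 hearts. Members called higher were 0 to 45 with each heart left out. The 0 members called lower became 1 without the filter, on FPKM (both pseudocounts), and 0 to 1 with each heart left out. Of all genes 6.56% were called lower without the filter, and 5.26 and 5.05% on FPKM. The replicate block gave 0 called members in E2a hearts, and of all genes 1 was called higher and 0 lower. Same-numbered E2a hearts did not deviate together (r = 0.060, -0.070 and -0.050). The block also gave a paired permutation p of 0.25 for the Rpl3l to Rpl3 ratio in each comparison, the smallest possible. It changed no other count of called members and, among the named genes of the Myh6 model, ended the call of Taf1a. Female hearts alone (replicates 2 and 3) and Rps27 added to Rps27rt were chosen after seeing the data. Female hearts alone gave 0 members called in E2a, where 0% of all genes were, and 0 for the difference between models, where 1.08% were higher and 2.18% lower. They gave -0.18 for Rpl22l1, -0.42 for Rps27 and -0.056 for Rplp2 in E2a, each above 0 in the fit with all 6 hearts, and a median of the members of 0.13.

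In Myh6-tg hearts 1 member was called higher on FPKM (both pseudocounts), 0 to 1 with each heart left out, and 1 lower in every fit. Of all genes 25.7 and 25.4% were called higher on FPKM, and 6.95 and 6.94% lower. In the fit without Myh6-tg replicate 1, which called 1 member higher, 12.8% of all genes were called higher. The median of the members moved from 0.05 to 0.45 with total counts and to 0.48 on FPKM with either pseudocount (0.475 and 0.479). Rps27l turned to 0.18 and Rps3 to 0.35 with total counts, to 0.12 and 0.38 on FPKM with either pseudocount, and Rps27 to -0.029 when added to Rps27rt.

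With each heart left out, medians ran from 0.22 to 0.42 (E2a), -0.14 to 0.22 (Myh6), 0.15 to 0.48 (controls) and -0.53 to -0.13 (difference between models). The ratio difference ran from -2.37 to -1.32, -5.29 to -4.35 and -1.40 to -0.46 in the first 3, and the difference between models called 1 member and the controls 0 in each. Signs turned in E2a for Rpl22l1 (-0.082 to 0.36), Rps27 (-0.085 to 0.66) and Rpl7l1 (-0.012 to 0.028), and in Myh6 for Rps27 (-0.45 to 1.07), Rps27l (-0.53 to 0.085), Rpl5 (-0.0090 to 0.26), Rps6 (-0.069 to 0.22), Rpsa (-0.067 to 0.20), Rps14 (-0.082 to 0.26), Rps3 (-0.22 to 0.095) and Rpl17 (-0.29 to 0.78). Of single-gene values under other settings, 870 kept their direction and side of the threshold, 82 lost and 53 gained a call, and 10 turned. With each heart left out, 333 kept both, 111 lost and 14 gained a call, and 16 turned. The cause of these changes was not tested. Depth limits Rpl39l and Rpl10l, at or near 0 counts.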
